A study of Mus musculus with 6 samples.

Results

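Eph receptors and ephrins were examined by RNA-seq in intestinal organoids of the mouse, which are primary epithelial cells grown in vitro as small self-organising structures. The 10 genes were taken by symbol from the deposited table of 24956 rows: the receptors Ephb2, Ephb3, Ephb4, Ephb6, Epha1 and Epha2 and the ligands Efnb1, Efnb2, Efna1 and Efna4. All 10 were found, and the other 12 Eph and ephrin genes of the mouse were read beside them. Both groups had the Apc Min genotype, in which 1 allele of the tumour suppressor Apc is truncated. Of the 6 libraries, 3 came from organoids in control medium and 3 from organoids in low glutamine medium. By its title, the study asked how alpha-ketoglutarate bears on Wnt signalling and differentiation in colorectal cancer. The sources used here do not give the glutamine concentration, the time in the medium, the intestinal segment, or the age and number of mice. The submitters call the libraries of a group biological replicates, and name no mouse or culture for any of them. The p-values therefore measure the spread between these libraries, which may be technical.

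Eph receptors are receptor tyrosine kinases whose ligands, the ephrins, are themselves tied to the surface of a neighbouring cell. A-type ephrins are held by a lipid anchor and B-type ephrins by a transmembrane segment, and a contact can signal forward into the receptor cell and in reverse into the ephrin cell, most often pushing the cells apart. In the intestine EphB2 and EphB3 are known as targets of beta-catenin and TCF that are highest near the crypt base, while ephrin-B1 and ephrin-B2 are highest in differentiated cells, and this opposition keeps the compartments sorted.

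Promoter sequences of 3 members are shown because they hold, or lack, the core letters of a TCF/LEF site. A further reason is that 2 of these genes, Efna1 and Efna4, lie in one cluster on chromosome 3 and moved in opposite directions. Efna3 lies between them. The windows are the 250 bases before the RefSeq start (GRCm38.p6, the patch release of mm10), written 5′ to 3′ on the strand of the gene, with matches in capitals. Gene positions given below are RefSeq's on the same build.
Epha2, chr4:141300971-141301220, plus strand: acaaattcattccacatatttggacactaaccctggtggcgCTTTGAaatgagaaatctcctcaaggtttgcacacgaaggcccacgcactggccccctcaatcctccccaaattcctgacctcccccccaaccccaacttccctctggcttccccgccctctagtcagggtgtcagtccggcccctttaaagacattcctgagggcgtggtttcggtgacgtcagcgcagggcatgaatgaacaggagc
Efna4, chr3:89338029-89338278, minus strand: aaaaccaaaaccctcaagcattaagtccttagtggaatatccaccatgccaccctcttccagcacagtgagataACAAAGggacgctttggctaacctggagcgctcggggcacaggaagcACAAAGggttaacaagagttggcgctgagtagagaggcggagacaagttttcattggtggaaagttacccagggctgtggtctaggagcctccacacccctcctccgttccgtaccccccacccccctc
Efna1, chr3:89280952-89281201, minus strand: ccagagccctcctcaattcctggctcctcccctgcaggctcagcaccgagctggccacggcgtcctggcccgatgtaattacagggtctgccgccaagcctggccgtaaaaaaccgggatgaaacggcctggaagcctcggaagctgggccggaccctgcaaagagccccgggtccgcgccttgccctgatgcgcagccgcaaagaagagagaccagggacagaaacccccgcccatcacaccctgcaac
The letters searched were CTTTGA and CTTTGT on both strands, which cannot overlap each other on one strand. CTTTGA was found in 1 of the 10 members, Epha2, beginning 209 bases before the start. CTTTGT was found in 1 member, Efna4, in its reverse form ACAAAG beginning 176 and 129 bases before the start. The other 8 members, Ephb2 and Ephb3 among them, held neither in this window. Efna1 has a second RefSeq start, whose window (chr3:89279646-89279895, not shown) held neither as well. Of 32851 RefSeq windows of this length, 13.8% held CTTTGA, 16.5% held CTTTGT and 27.6% held either, beside 1, 1 and 2 of the 10 members. The members' windows held 7 to 27 CpG dinucleotides, against a median of 6 over all windows.

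The values are RPKM, reads scaled to transcript length and to library size, so that levels can be set side by side between genes. Differences were tested with limma on log2(RPKM + 1) over 11082 genes, those whose mean reached 1 RPKM, and an adjusted p under 0.05 counted as a call. Depth was estimated at between 24.4 and 35.4 mega reads, and libraries correlated at 0.996 to 0.998 within a group. Across all tested genes 66.4% were called, 36.1% higher and 30.3% lower in low glutamine, so that a call alone does not set a gene apart here. The higher calls made up 54.4% of all calls, but 69.0% when every library was rescaled to one RPKM sum, and 71.6% when that sum left out the ribosomal RNA precursor Rn45s. The median log2 fold change over tested genes was 0.03, and 0.14 and 0.17 after these rescalings. With median-of-ratios scaling the higher calls made up 49.4% of all calls, and with quantile normalization 52.8%. Sex-linked transcripts differed as well. Xist, the RNA that silences an X chromosome, averaged 87.3 ± 3.78 RPKM (SD, n = 3) in control medium but 0.0286 ± 0.00577 RPKM in low glutamine, and the Y-linked Eif2s3y had 0 RPKM in all 3 control libraries and a mean of 27.7 ± 3.25 RPKM in low glutamine. These transcripts went with the group in every library, so the groups also differ in the sex of the organoid source. The medium and this difference of source cannot be told apart in any result that follows.

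The epithelial identity on the labels was checked on markers. The adhesion gene Cdh1 averaged 165 RPKM in control, against 219 RPKM in low glutamine, and the keratin Krt18 233 and 573 RPKM. Of the 8 epithelial markers 4 were higher (Epcam, Cdh1, Krt8 and Krt18) and 4 lower, namely Krt19 (399 to 281 RPKM), Vil1 (190 to 133), Cdx1 (85.3 to 56.8) and Cdx2 (97.1 to 65.6). Endothelial markers matter here because Efnb2 and Ephb4 are best known from arteries and veins. Of 10 such markers 9 were under 1 RPKM in every library and 3, Tie1, Emcn and Cldn5, were at 0 throughout. Their summed level was 2.87 to 3.05 RPKM in control, compared with 6.44 to 7.26 in low glutamine, nearly all of it from Esam, a junction protein (2.54 and 6.12 RPKM). All 10 stromal markers, 7 of 8 immune markers and 5 of 6 neural markers were under 1 RPKM in every library. The exceptions were Cd68 (0.685 and 1.998 RPKM) and the tubulin gene Tubb3 (0.381 and 4.77 RPKM). The part of Esam, Cd68 and Tubb3 expressing cells in the results was not tested.

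**Figure D1:**
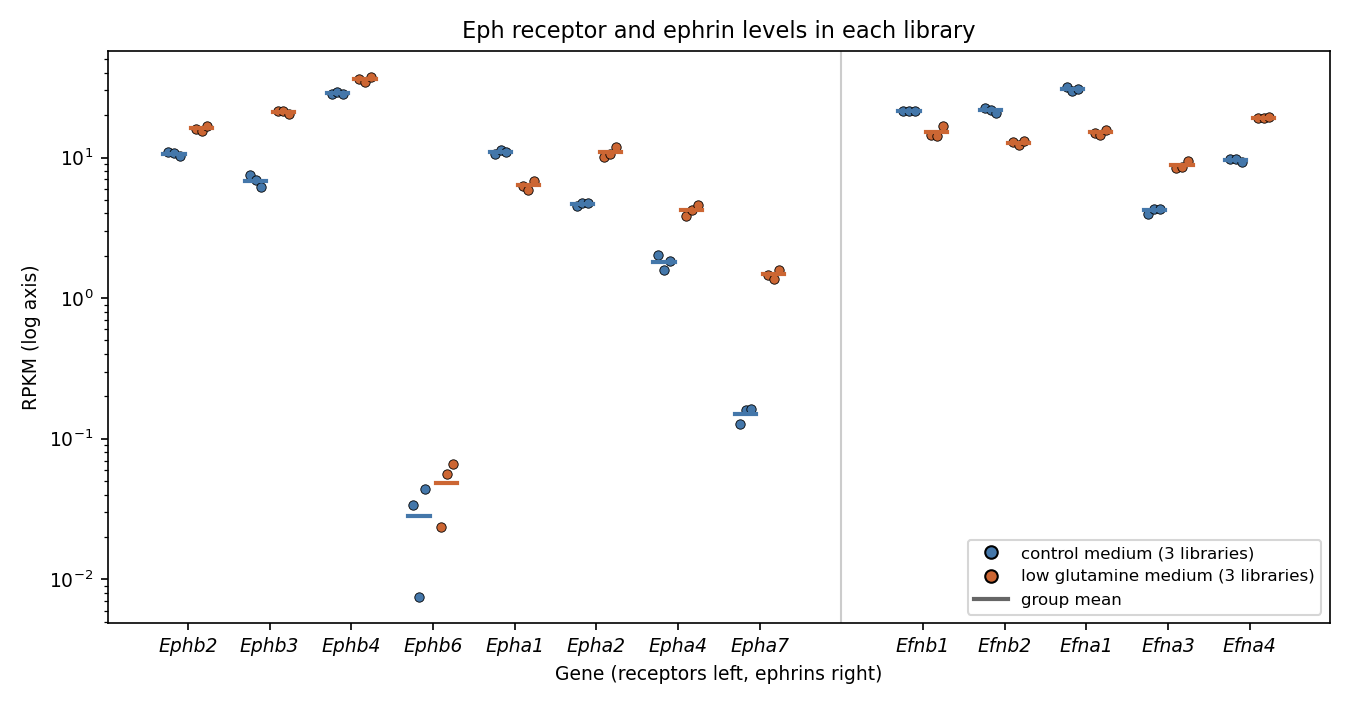
RPKM on a log axis for the 10 members and for Epha4, Epha7 and Efna3, with 1 point per library, blue for control medium and orange for low glutamine medium, and a bar at each group mean. The groups do not overlap for any gene shown except Ephb6, which lies under 0.1 RPKM in all 6 libraries. Among all tested genes, 70.2% had groups that do not overlap. Epha7 was singled out after its values were seen.

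Of the 10 members, 9 passed the filter on low values and all 9 were called: 5 were higher and 4 lower in low glutamine. Over all tested genes 66.4% were called, 36.1% higher and 30.3% lower. All 9 had at least 4.51 RPKM in every library, so none passed the filter through one group alone. The EphB receptors Ephb2, Ephb3 and Ephb4 rose and the ephrin-B genes Efnb1 and Efnb2 fell, while the A class split: Epha2 and Efna4 rose, and Epha1 and Efna1 fell. The 3 values of one group lay wholly above those of the other for all 9 tested members, against 70.2% of all tested genes (38.9% with low glutamine higher, 31.3% with it lower). In bulk samples, fewer cells of a type and less RNA per cell cannot be told apart, and this holds for each value here.

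Among the tested receptors, Ephb3 had the largest log2 fold change. Ephb3 (chromosome 16, 21204620 to 21223309) measured 7.50, 6.86 and 6.12 RPKM in control replicates 1 to 3 and 21.3, 21.3 and 20.5 RPKM in low glutamine replicates 1 to 3. Every low glutamine library was more than 2-fold above every control library. The mean went from 6.83 ± 0.689 to 21.0 ± 0.465 RPKM, a 3.08-fold rise (log2 fold change 1.497 ± 0.06 SE, 95% interval 1.36 to 1.64, limma adjusted p = 8.9e-10). A larger change in either direction was seen in 4.0% of tested genes.

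Ephb2, its partner receptor in crypt cells (chromosome 4, 136647536 to 136836326), changed less. It measured 10.9, 10.8 and 10.3 RPKM in control, against 15.9, 15.6 and 16.8 RPKM in low glutamine. The groups were apart, and the mean rose 1.51-fold, from 10.7 ± 0.295 to 16.1 ± 0.654 RPKM (0.55 ± 0.05, interval 0.44 to 0.67, limma adjusted p = 1.4e-06). The intervals of the Ephb2 and Ephb3 differences did not meet, and the Ephb3 to Ephb2 ratio within a library went from 0.593 to 0.690 in control to 1.22 to 1.37 in low glutamine. In control Ephb2 was thus the higher of these receptors in every library, and in low glutamine Ephb3 was.

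Ephb4, a receptor that binds mainly ephrin-B2 (chromosome 5, 137350109 to 137374522), was the most abundant receptor of the family in all 6 libraries. It measured 28.4, 29.1 and 28.2 RPKM in control, compared with 36.3, 34.2 and 37.5 RPKM in low glutamine. Its rise, 1.26-fold, was the smallest difference among the called members (0.32 ± 0.05, interval 0.21 to 0.44, limma adjusted p = 1.8e-04), and 38.8% of tested genes changed by more. In the GENCODE M21 annotation of mm10, used for exon overlaps and transcript lengths, 33 exonic bases of Ephb4 (0.711%) overlap Zan on the opposite strand, a gene at a mean of 0.935 RPKM.

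Ephb6, a family member that lacks kinase activity (chromosome 6, 41603834 to 41620509), was close to absent. It measured 0.0341, 0.00751 and 0.0436 RPKM in control, against 0.0234, 0.0565 and 0.0659 RPKM in low glutamine, under the filter. With the annotated transcript of 3762 bases and the estimated depths these values come to 4, 1 and 4 reads and 3, 7 and 7 reads, whole within 0.0037. The groups overlapped, and a difference was not detectable at this depth.

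The transmembrane ligands moved the other way. Efnb2 (chromosome 8, 8617235 to 8661242), the partner of Ephb4 and of the crypt receptors, measured 22.6, 21.6 and 20.8 RPKM in control, compared with 12.8, 12.4 and 13.2 RPKM in low glutamine. No low glutamine library came near the control range. The mean was 1.70-fold lower (21.7 ± 0.887 against 12.8 ± 0.390 RPKM), a log2 fold change of -0.72 ± 0.05 (interval -0.83 to -0.60, limma adjusted p = 1.3e-07).

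Efnb1 (chromosome X, 99136061 to 99149022), the main ligand of EphB2 and EphB3 in the epithelium, stood at 21.4, 21.5 and 21.4 RPKM in control. In low glutamine it measured 14.5, 14.3 and 16.7 RPKM, so that replicate 3 lay above the other two but still well under every control. The mean was 1.41-fold lower (21.4 ± 0.0757 against 15.2 ± 1.32 RPKM), a log2 fold change of -0.47 ± 0.06 (interval -0.61 to -0.34, limma adjusted p = 2.4e-05), and -0.54 without low glutamine replicate 3. Efnb1 is the only X-linked gene of the family, in libraries that differed in Xist. Among 320 tested X-linked genes 25.6% were lower and 44.4% higher, with a median log2 fold change of 0.12, against 30.5% lower and 35.8% higher among 10720 autosomal genes, with a median of 0.03. The next protein-coding gene downstream, the ubiquitin ligase gene Pja1, measured 19.4 and 18.96 RPKM (-0.04, limma adjusted p = 0.644).

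Ratios within a library do not depend on how libraries are scaled. Summed RPKM of Ephb2 and Ephb3 over that of Efnb1 and Efnb2 was 0.418, 0.409 and 0.390 in control replicates 1 to 3 and 1.36, 1.38 and 1.25 in low glutamine replicates 1 to 3. In control the ligand transcripts outnumbered these receptor transcripts per length in every library, and in low glutamine the receptor transcripts did. Over the whole B class the receptor to ligand ratio went from 1.06 ± 0.0123 to 2.61 ± 0.0990 (SD, n = 3), with the summed receptors at 46.1 and 73.2 RPKM and the summed ligands at 43.3 and 28.1 RPKM. These sums describe the genes chosen and carry no test.

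Markers of the cell types along the crypt axis also differed between the groups. The shares called over all tested genes were 36.1% higher and 30.3% lower. All 10 crypt base markers were higher in low glutamine, with a summed level of 737 to 803 RPKM in control, against 1521 to 1692 RPKM in low glutamine, among them the surface protein gene Cd44 (4.20 to 27.7 RPKM) and Tnfrsf19 (1.24 to 45.9 RPKM). Of 10 enterocyte markers 9 were lower and 1, Alpi (named after its value was seen), was higher, and their sum went from 3468 to 3760 RPKM down to 463 to 522 RPKM. All 7 Paneth cell markers, 6 of 7 enteroendocrine markers and the 3 tested tuft cell markers of 6 were higher. The enteroendocrine exception, Gcg (named after its value was seen), fell from 84.8 to 16.1 RPKM. The tuft markers Trpm5 and Avil and the Paneth cell marker Defa5 reached the filter only through low glutamine. All 7 goblet cell markers were lower. The part of these cell types in the Eph and ephrin values was not tested.

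**Figure D2:**
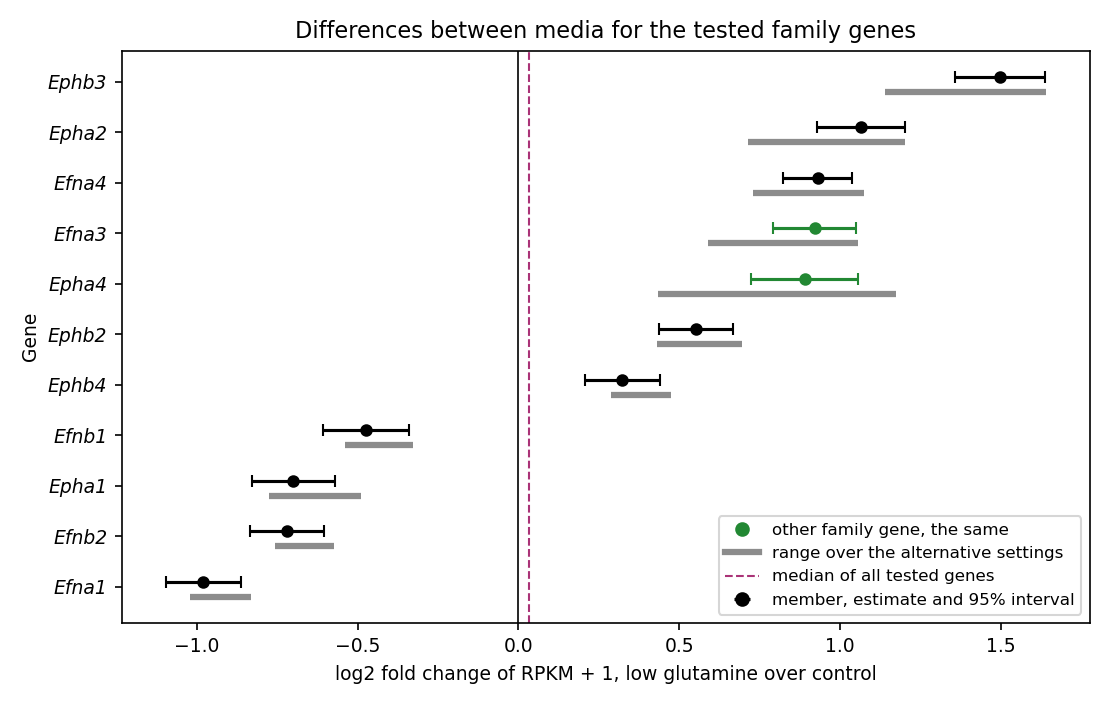
Log2 fold changes of RPKM + 1, low glutamine over control, for the 9 tested members (black) and for Efna3 and Epha4 (green), each with its 95% interval. Grey bars give the range over the alternative settings and the dashed line the median of all tested genes. No interval and no grey bar crosses 0, from Ephb3 at 1.497 down to Efna1 at -0.98.

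The A class receptors split. Epha2, a receptor of epithelial cell contacts (chromosome 4, 141301221 to 141329384), measured 4.51, 4.73 and 4.78 RPKM in control, compared with 10.1, 10.7 and 11.9 RPKM in low glutamine. The groups were well apart. Epha2 rose 2.33-fold (log2 fold change 1.07 ± 0.06, interval 0.93 to 1.20, limma adjusted p = 1.5e-08), the second largest rise among the members, and 7.53% of tested genes changed by more. Mean RPKM was at least 2-fold higher for 6.47% of all tested genes, and among the members for Ephb3 and Epha2.

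Epha1, the founding member of the family (chromosome 6, 42358487 to 42373314), went the opposite way. It measured 10.5, 11.2 and 10.9 RPKM in control, against 6.25, 5.90 and 6.83 RPKM in low glutamine, with no overlap. The mean was 1.72-fold lower, and the gene fell by 0.70 on the log2 scale (SE 0.06, limma adjusted p = 4.7e-07). The Epha2 to Epha1 ratio within a library was 0.421 to 0.439 in control and 1.61 to 1.81 in low glutamine. Exons of Epha1 overlap those of Zyx, a focal adhesion gene on the opposite strand, over 236 of 3928 bases (6.01%). Zyx rose from 11.0 to 16.7 RPKM, and since the strand setting is not given in the sources used here, reads of these genes cannot be told apart within the overlap.

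The lipid-anchored ligands also split. Efna1, a ligand of EphA2 (chromosome 3, 89271730 to 89280951), was the most abundant ephrin in control, at 31.7, 29.8 and 30.6 RPKM. It measured 15.0, 14.5 and 15.8 RPKM in low glutamine, below every control library by a wide gap. This was the largest fall among the members, 2.04-fold (log2 fold change -0.98 ± 0.05, interval -1.10 to -0.86, limma adjusted p = 7.4e-09). Mean RPKM was at least 2-fold lower for 5.13% of all tested genes.

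Efna4, a second ligand of A class receptors (chromosome 3, 89333393 to 89338028), measured 9.81, 9.68 and 9.31 RPKM in control, compared with 19.2, 19.1 and 19.3 RPKM in low glutamine. The low glutamine libraries differed from each other by less than those of any other tested member. Efna4 rose 1.999-fold (0.93 ± 0.05, interval 0.82 to 1.04, limma adjusted p = 5.4e-09). The Efna4 to Efna1 ratio went from 0.304 to 0.325 in control to 1.22 to 1.32 in low glutamine. An annotated antisense gene, 4731419I09Rik, covers 168 of the 1599 exonic bases of Efna4 (10.5%), and was not analysed here.

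Efna1 and Efna4 belong to one cluster on chromosome 3 with Efna3 between them, the leftmost annotated bases of Efna1 and Efna4 lying 61663 bases apart. Distances between genes are measured in this way throughout. Efna3, another A class ligand, rose from 3.97, 4.31 and 4.31 RPKM to 8.44, 8.60 and 9.51 RPKM (0.92 ± 0.06, limma adjusted p = 3.7e-08, and 0.59 with a pseudocount of 5). An annotated antisense gene, Gm15998, covers 344 of its 2434 exonic bases (14.1%). On the far side of Efna1 the sugar transporter gene Slc50a1 lies 3484 bases away and rose from 9.46 to 16.1 RPKM (0.71, limma adjusted p = 2.4e-07). Beyond it Dpm3, a subunit gene of a glycosylation enzyme, measured 10.7 and 11.5 RPKM and did not pass (limma adjusted p = 0.292), although it passed as higher with either rescaling to a common sum, at 0.24 with Rn45s left out. Next to Efna4, the protease gene Adam15 fell from 8.13 to 5.50 RPKM (-0.48, limma adjusted p = 1.2e-04, and -0.32 with a pseudocount of 5). Efna1 thus went down between neighbours that went up on both sides. Efna3, which rose, held neither motif in its windows, and Efna2, a ligand gene on chromosome 10 that holds ACAAAG at 205 and 10 bases before its start, had means of 0.671 and 0.453 RPKM. The part of these motifs in the differences was not tested.

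**Figure D3:**
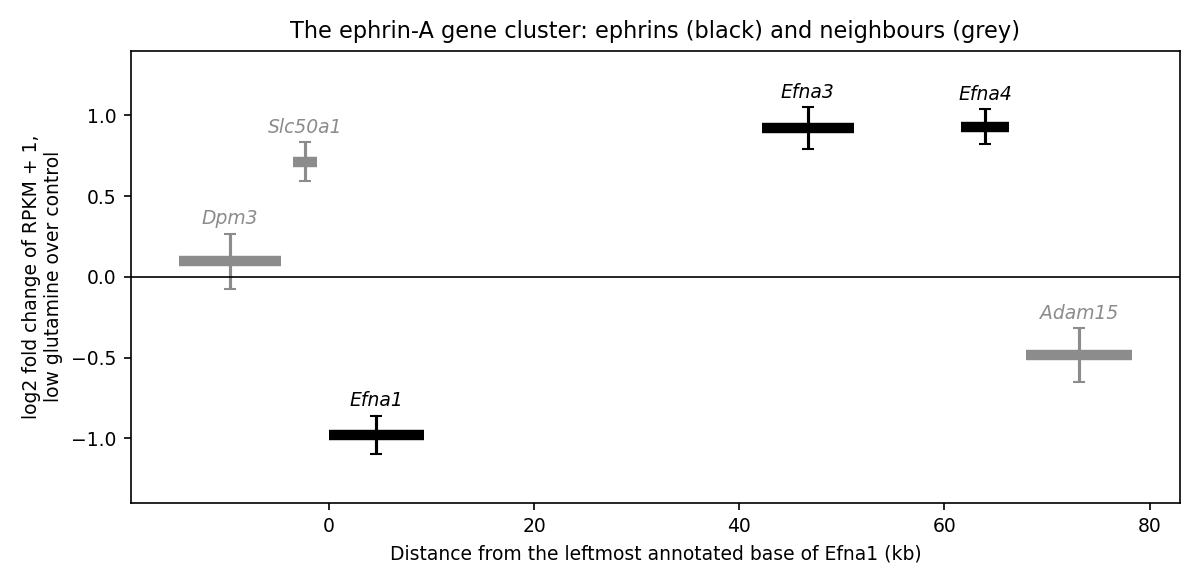
Log2 fold change of RPKM + 1 with its 95% interval (vertical bars) against the distance in kilobases from the leftmost annotated base of Efna1, for the 3 clustered ephrins (black) and 3 neighbours (grey). Horizontal bars span each gene. Efna1 lies at -0.98 while Efna3 and Efna4 lie at 0.92 and 0.93.

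Nearest protein-coding neighbours were read for all members. Of 19 such genes 10 were tested and 5 of these passed, against 66.4% of all tested genes. Efna3, Slc50a1 and Adam15 of the chromosome 3 cluster are 3 of the 5, and Zyx beside Epha1 and Slc10a2 beside Efnb2 are the others. Slc10a2, the bile acid transporter gene of the ileum, fell from 6.16 to 0.640 RPKM at 3534016 bases from Efnb2 (-2.12, and -0.98 with a pseudocount of 5). The 5 that did not pass were Vps8, Slc12a9, Pja1, Arglu1 and Arhgef19, with adjusted p-values of 0.124 or more, although Vps8, Arglu1 and Arhgef19 passed as higher with either rescaling to a common sum and Slc12a9 as lower with quantile normalization. Arglu1, 49062 bases from Efnb2, measured 24.2 and 24.4 RPKM.

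The rest of the family was mostly under the filter. Besides Efna3, 1 of the 12 other genes was tested. Epha4, a receptor that binds ephrins of both classes (chromosome 1, 77367182 to 77515107), rose from 2.03, 1.58 and 1.85 RPKM to 3.83, 4.24 and 4.60 RPKM. The groups did not overlap (0.89 ± 0.08, limma adjusted p = 5.7e-07), and the difference was 0.44 with a pseudocount of 5.

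Epha7, another A class receptor, was under the filter by its mean, but its groups did not overlap. It measured 0.128, 0.159 and 0.164 RPKM in control, against 1.47, 1.37 and 1.59 RPKM in low glutamine, 9.79-fold more. In the fit without a filter its log2 fold change was 1.10 ± 0.04 (limma adjusted p = 1.1e-04). This gene was singled out after its values were seen. Of the 9 other genes outside the members and under the filter, 4 passed in that fit, each with a small difference on this scale. Epha3 (0.06) and Ephb1 (0.0098, from 1 read in each low glutamine library) were higher, Efna2 (-0.20) and Efnb3 (-0.08) lower. Of all 24956 genes in that fit, 5141 were called higher and 3158 lower.

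The other 9 family genes were under 1 RPKM in every library. Efna2 was the highest of them, at 0.631, 0.689 and 0.692 RPKM in control, compared with 0.538, 0.456 and 0.365 RPKM in low glutamine, or 36 to 52 and 22 to 39 estimated reads. Efnb3, the remaining transmembrane ligand, averaged 0.259 and 0.190 RPKM. Epha3 stood at 1 to 5 estimated reads in control and 9 to 14 in low glutamine, and Epha8 at 0 to 2 and 3 to 6. Ephb1 was listed at 0 in control and rested on 1 read in each low glutamine library. Epha5 and Efna5 averaged under 0.1 RPKM in both groups, Epha10 was above 0 in 1 library, and Epha6 was listed at 0 in all 6.

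The order of the levels changed between the media. In control the receptors ranked Ephb4, Epha1, Ephb2, Ephb3, Epha2 and Epha4, and the ranges of Epha1 and Ephb2 overlapped while those of the other neighbours in the order did not. In low glutamine the order was Ephb4, Ephb3, Ephb2, Epha2, Epha1 and Epha4, with no overlap between neighbours. Among the ephrins the control order was Efna1, Efnb2, Efnb1, Efna4 and Efna3, with Efnb2 and Efnb1 overlapping. In low glutamine Efna4 came first, followed by Efnb1 and Efna1, whose ranges overlapped, and then Efnb2 and Efna3.

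Shares of the summed receptor and ephrin RPKM show the same shifts free of library scaling. Ephb3 made up 10.7% ± 0.950 of all receptor RPKM in control, against 21.9% ± 1.23 in low glutamine (SD, n = 3), and Epha1 17.1% ± 0.580 and 6.57% ± 0.260. Ephb2 held 16.7% in both groups, so its rise matched that of the receptor sum, which went from 63.7 ± 1.08 to 96.3 ± 3.39 RPKM. The share of Ephb4 went from 44.9% to 37.4%, although its level rose. Among the ephrins, Efna4 went from 10.8% ± 0.183 to 26.8% ± 0.934 and Efna1 from 34.7% ± 0.644 to 21.0% ± 0.241. The summed A class ligands overlapped between groups, at 44.5 to 46.1 RPKM in control, compared with 42.7 to 44.96 RPKM in low glutamine, while their makeup changed.

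**Figure D4:**
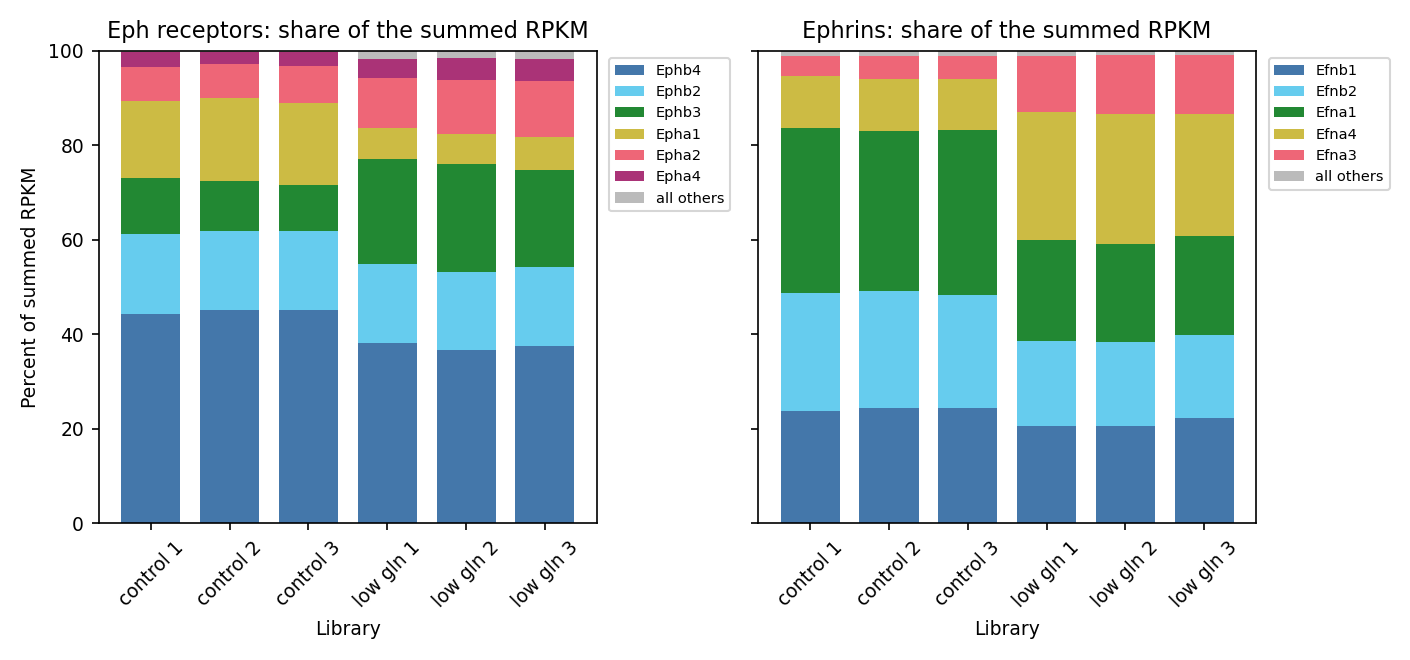
Stacked bars of the percentage of summed RPKM held by each gene in each of the 6 libraries, for the Eph receptors (left) and the ephrins (right), with all genes not named in grey. Ephb3 and Efna4 take larger shares in the 3 low glutamine libraries, and Epha1 and Efna1 smaller ones.

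Genes that work with Eph receptors and ephrins showed no common direction. Of 59 such genes 53 were tested, 16 were higher, 17 were lower and 20 did not pass, which makes 62.3% called against 66.4% of all tested genes. Their median log2 fold change was 0.01 against 0.03 over all tested genes. With libraries rescaled to a common sum 28 were higher and 12 lower, and without Rn45s in that sum 29 and 11.

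Among 16 tested adaptors, guanine nucleotide exchange factors (GEFs) and other signalling partners of the receptors, 6 rose, 2 fell and 8 did not pass. Without low glutamine replicate 3, 4 fell. The Rac activator Tiam1 rose from 4.76 ± 0.168 to 9.06 ± 0.505 RPKM (0.80 ± 0.06, limma adjusted p = 8.1e-08). Vav3, another exchange factor, rose from 4.95 to 8.14 RPKM, the adaptor Grb7 from 27.0 to 41.4 RPKM, and the Rac inhibitor Chn2 from 9.50 to 13.5 RPKM. The exchange factor gene Arhgef16 (named after its value was seen) fell from 34.2 to 23.0 RPKM, by 0.55 on the log2 scale. Of 11 kinases and phosphatases, 4 rose and 3 fell (8 and 1 with rescaling to a common sum). Without control replicate 1 or without low glutamine replicate 2, 1 of them fell. Ptpro, a phosphatase known to act on Eph receptors, rose from 1.57 to 4.24 RPKM (1.03 ± 0.06, limma adjusted p = 1.1e-08), and was 0.49 with a pseudocount of 5. The Src family kinase gene Fyn, which reached the filter only through low glutamine, rose from 0.812 to 2.09 RPKM, Abl2 from 3.98 to 5.36 RPKM and Src from 18.6 to 22.2 RPKM. With a pseudocount of 5 the log2 fold changes of Tiam1, Vav3, Fyn and Abl2 were 0.53, 0.40, 0.29 and 0.21, and with rescaling without Rn45s that of Src was 0.39.

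Partners of the ephrin-B tail and the shedding machinery moved little. Of 6 tested ephrin-B partners, 1 rose, 2 fell and 3 did not pass. Rgs3, which links ephrin-B to G protein signalling, fell by 0.40 on the log2 scale, Pard6a fell by 0.29, and the junction scaffold Tjp1 rose by 0.21, while Pick1 measured 11.7 and 12.6 RPKM (limma adjusted p = 0.15) and passed as higher with either rescaling to a common sum. Rgs3 was -0.21 and Pard6a -0.12 with a pseudocount of 5, Pard6a -0.497 with quantile normalization, and Tjp1 0.36 with rescaling without Rn45s. Of 8 proteases and gamma-secretase subunits that cut ephrins and their receptors, 4 fell and 2 rose, or 1 in 5 of the 6 fits that leave out a library (all but that without control replicate 3). The subunits Aph1a and Psenen fell by 0.38 and 0.33, and Ncstn rose by 0.23. Of 12 cytoskeletal and adhesion effectors, 6 fell and 3 rose (2 fell with quantile normalization). Cdh1 rose by 0.40, and Git1, Pak1 and Arpc2 fell by 0.30, 0.31 and 0.26, the last at 0.0036 with quantile normalization. With rescaling without Rn45s Aph1a, Psenen, Git1 and Pak1 were -0.23, -0.18, -0.15 and -0.17 and Ncstn 0.38, and Cdh1 was 0.685 with quantile normalization.

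**Figure D5:**
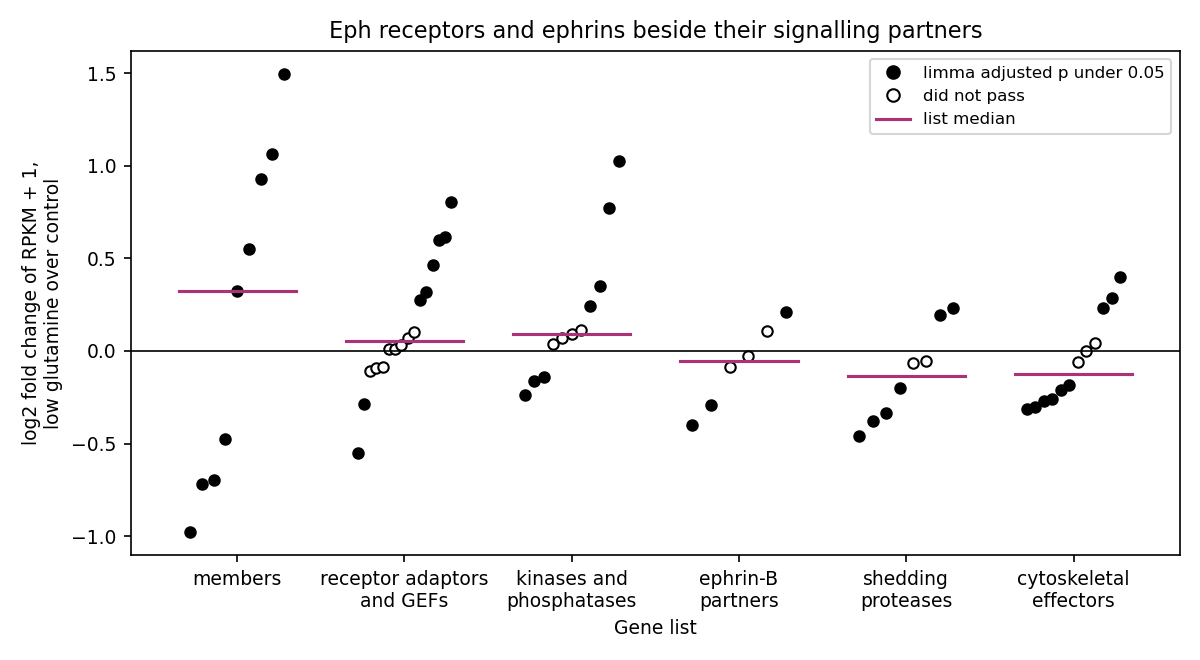
Log2 fold changes of RPKM + 1, low glutamine over control, for the 9 tested members and for 5 lists of signalling partners, with filled points past a limma adjusted p of 0.05, open points not past it, and a line at each list median. The members reach from -0.98 to 1.497, and the list medians of the partners lie between -0.13 and 0.09.

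The genes most like the extreme members were sought over the 6 libraries. For Ephb3 the highest Pearson correlations of log2(RPKM + 1) among the 7798 genes whose mean reached 5 RPKM and whose symbols are not those of predicted genes or clones were those of Tmem171, Rdh10, Soat1 and Neurod1, at 0.9999, 0.9997, 0.9997 and 0.9996. Rdh10, a retinol dehydrogenase gene, rose from 8.70 to 27.3 RPKM, and Neurod1, an enteroendocrine transcription factor gene, from 3.37 to 13.1 RPKM. For Efna1 they included Prlr, Fahd1 and Gfpt1, with the prolactin receptor gene Prlr going from 21.9 to 10.2 RPKM. As the libraries form 2 tight groups, 401 genes correlated with Ephb3 and 660 with Efna1 above 0.99, so these names only describe the pattern.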

How the data were processed

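RNA of 6 organoid libraries was sequenced, 3 in control and 3 in low glutamine medium. The authors deposited 1 table of RPKM for all 6. Tools named in the submitters' processing notes are HISAT2 2.0.4, CASAVA 1.8 and Partek, and the build is mm10, without role or order. Annotation, counting rule and strand setting are not given in the sources used here. Of 24956 symbols, 24310 matched a RefSeq gene of GRCm38.p6 by symbol, 524 by synonym and 122 not, 26 of them turned into dates.

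RPKM are not counts, so limma 3.58.1 (R 4.3.3) with a variance trend was run on log2(RPKM + 1), a scale that understates the change of low genes. Genes needed a mean of at least 1 RPKM. The two-sided p-values were adjusted over 11082 genes by the Benjamini-Hochberg method. The script was tested on simulated data. Python 3.11.15, pandas 2.3.3, numpy 2.4.6 and matplotlib 3.10.9 made tables and plots. Depth was estimated from the lowest values of single-exon GENCODE genes, where 1 read has a known RPKM. A transcript of 1 kilobase at 1 RPKM thus rests on 24.4 to 35.4 reads per library.

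The members, lists, tests and naming rule were chosen with earlier results of these data known. Named were all family genes, up to 4 genes with the smallest p per partner list, up to 2 per marker list, nearest neighbours, and the 4 genes most correlated with the extreme members, leaving out predicted genes. Some genes that this rule names are not reported here. Groups share replicate numbers in the labels. Deviations of same-numbered libraries correlated at 0.15, 0.25 and 0.57 for numbers 1, 2 and 3, which met the rule set for pairing (every pair above 0.1). However, those of control replicate 2 correlated at 0.36 with those of low glutamine replicate 1. Those of control replicate 1 correlated at 0.20 with those of low glutamine replicate 2. The main fit was unpaired, and the pairing entered only as an alternative. Alternatives were other pseudocounts, filters, scalings and variance models, a replicate block, autosomal genes only, and leaving out each library.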

Additional observations from a re-analysis of the deposited data

How the results depend on the processing

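All 9 tested members, and Efna3 and Epha4, kept their direction and their call under each alternative that could be fitted. Efnb1 is not in the autosomal fit, and Epha4 is not in the fit with a mean of at least 5 RPKM. The largest adjusted p over these alternatives was 0.0050, for Efnb1 in the fit without a filter on low values. Across the fits that leave out 1 library, Ephb3 ranged from 1.43 to 1.56, Ephb2 from 0.52 to 0.57, Efnb2 from -0.75 to -0.69 and Efna1 from -1.01 to -0.95. With the replicate number as a block, 5 members were higher and 4 lower, as without it, 4192 of all genes were higher and 3544 lower, and no member's call changed. Over all genes, the number higher was 2532 with a mean of at least 5 RPKM, where fewer genes are tested, and 6021 with rescaling to a common sum without Rn45s. Of the signalling partners 28 were higher with rescaling to a common sum, and 29 were higher and 11 lower without Rn45s in that sum. Small differences that had not passed changed sign. The Vps8 log2 fold change was -0.0558 with quantile normalization and ranged from -0.0010 to 0.0723 over the fits without 1 library. The Slc12a9 log2 fold change was 0.0353 after rescaling to a common sum, or 0.0582 if Rn45s was left out of the sum. The Pja1 log2 fold change was 0.0839 and 0.110 under these rescalings and 0.0215 with quantile normalization, and ranged from -0.112 to 0.0165 without 1 library. The Arglu1 log2 fold change was -0.0202 with median-of-ratios scaling and ranged from -0.0279 to 0.0595 without 1 library. The called Arpc2 was 0.0036 with quantile normalization. The cause of these changes was not tested. Depth limits Ephb6 and the 9 family genes under 1 RPKM. Ephb6, Epha3, Epha8 and Ephb1 rest on at most 14 estimated reads in a library, and Efna2 on 22 to 52.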
